A study of Mus musculus with 6 samples.

Results

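The genes followed here are 9 imprinted genes with roles in growth: H19, Dlk1, Meg3, Peg3, Mest, Grb10, Plagl1, Ndn and Peg10. They were taken by symbol from a table of 23284 gene rows, where all 9 were found, and all 9 passed the filter on low counts that left 13849 genes to test. RNA was sequenced from epithelium separated from the mouse esophagus at stage E12.5, in 3 samples homozygous for a Trp63-CreERT2 allele (p63KO) and in 3 littermate controls. Trp63 encodes p63, the transcription factor that basal cells of stratified epithelia depend on. The controls are titled WT, but the labels do not say whether a littermate carries 1 copy of the allele, which strain was used or how many embryos make up a sample. P-values therefore measure only the spread between these samples, which may be technical.

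An imprinted gene is expressed mainly or only from the copy inherited from a given parent, because a DNA methylation mark set in the egg or the sperm is kept after fertilization. Such genes often lie in domains under a shared control region, with maternally and paternally expressed genes side by side. Many of them act on fetal growth and are abundant in embryonic tissues. The deposited counts do not separate the parental copies, so every value below is the sum of both, and the parental origins named are background.

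Total counts per library ran from 13335328 to 20093838. Trp63 fell from 602.9 ± 63.9 to 71.4 ± 8.03 CPM (mean ± SD, n = 3). CPM is the count scaled to a common library size, with the sizes adjusted by the TMM method. Epithelial markers were present in all 6 libraries, and their sum over 11 genes lay between 4879 and 5127 CPM in controls and between 5338 and 5428 CPM in p63KO. Of those 11, 5 rose and Cdh1 fell (-0.40 on the log2 scale, edgeR adjusted p = 0.00076). That is 54.5% called, against 29.6% of all genes tested. Control replicate 3 stood apart: 58 genes were above 5 CPM there and over 4 times as high as in any other library (1 CPM was added to that level), with 2 such genes in control replicate 1 and none in the other 4 libraries. Values that rest on that library are given with and without it. Xist, which is expressed from the inactive X chromosome of female cells, was low in p63KO replicate 2, at 1.59 CPM, while each other library held at least 514.4 CPM. Without p63KO replicate 2 the log2 fold change was 2.98 for Dlk1 and 1.73 for Meg3, and of the 6 calls among the 9 genes only that of Grb10 was lost.

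The H19 and Dlk1-Meg3 loci carry microRNA hairpins, and their sequences are shown here because the Dlk1-Meg3 domain, whose long transcripts rose in p63KO, is also a large microRNA cluster. MicroRNAs are short RNAs that pair with target messengers mainly through the seed. The mature arms of Mir675, which lies inside H19 (miR-675-5p, minus strand, chr7:142577112-142577133), and of 5 hairpins of the domain on chromosome 12 were taken from RefSeq (build GRCm38.p6). They are printed 5′ to 3′, with the seed, bases 2 to 8, in capitals. Mir3072, Mir377, Mir493 and Mir1188 held the most counts of the domain's hairpins, and Mir540 was added after its values were seen.
miR-675-5p: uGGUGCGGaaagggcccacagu
miR-675-3p: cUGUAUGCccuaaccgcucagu
miR-3072-5p: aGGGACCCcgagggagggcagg
miR-3072-3p: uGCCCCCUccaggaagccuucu
miR-377-5p: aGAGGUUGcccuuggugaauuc
miR-377-3p: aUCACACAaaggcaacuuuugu
miR-493-5p: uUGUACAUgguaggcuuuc
miR-493-3p: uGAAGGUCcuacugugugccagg
miR-1188-5p: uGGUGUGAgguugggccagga
miR-1188-3p: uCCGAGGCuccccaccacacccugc
miR-540-5p: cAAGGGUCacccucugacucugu
miR-540-3p: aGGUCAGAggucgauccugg
The 12 arms had 12 distinct seeds, so none of those shown could be grouped by a shared seed. Over the whole domain, from the start of Meg3 to the end of Dio3, 108 mature sequences had 99 distinct seeds, and 9 seeds were shared by 2 arms each.

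H19 is a maternally expressed noncoding RNA that restrains growth in the embryo, and it was among the most abundant transcripts of this epithelium. Its levels were 11125, 8734 and 10904 CPM in control replicates 1, 2 and 3, and 9803, 10225 and 10714 CPM in p63KO replicates 1, 2 and 3. The groups overlapped, with p63KO inside the control range. The log2 fold change of p63KO over control was 0.00 (SE 0.09, 95% interval -0.20 to 0.20, edgeR quasi-likelihood adjusted p = 1). The interval bounds a difference, given the spread between these libraries, and does not show equality. H19 took between 0.851% (Wilson 95% interval 0.847% to 0.855%, counting error only) and 1.10% (1.09% to 1.10%) of all counts in a library. It ranked first or second among all rows in each of the 6 libraries.

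Igf2, the paternally expressed growth factor that shares an enhancer and a control region with H19, had 5368, 4181 and 4934 CPM in controls and 5375, 5116 and 5412 CPM in p63KO. Its log2 fold change was 0.13 (SE 0.09, adjusted p = 0.29, edgeR), and the test was not passed. The ratio of H19 to Igf2 counts was 2.07, 2.09 and 2.21 in controls and 1.82, 2.0 and 1.98 in p63KO. All 3 p63KO ratios were below all 3 control ratios, by 0.14 on the log2 scale on average. An exact two-sided permutation test gave p = 0.1, the smallest p that 3 against 3 samples can give, so this comparison could not pass a threshold of 0.05. Reads at Mir675 were 0 in all 6 libraries, which allows up to 3 counts in each. How the authors assigned a read lying in both H19 and its hairpin is unknown from the sources used here. Mir483, inside Igf2, had 8, 14 and 18 counts in controls and 24, 20 and 12 in p63KO.

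Of the 9 genes, 4 rose in p63KO (Dlk1, Meg3, Grb10 and Ndn), 2 fell (Plagl1 and Peg10) and 3 did not pass the test (H19, Peg3 and Mest), at an edgeR adjusted p under 0.05. Among all genes tested, 29.6% were called, 15.3% as higher and 14.3% as lower. The groups did not overlap for 6 of the 9, against 44.1% of all genes tested. With 9 genes, chosen with earlier results of these data known, these shares are a description of the list. The median log2 fold change was 0.11 over the 9 and -0.01 over all genes tested, and the median size was 0.49 against 0.20. The RNA is from bulk tissue, so fewer cells of a type and less RNA per cell cannot be told apart for any of these genes.

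**Figure D1:**
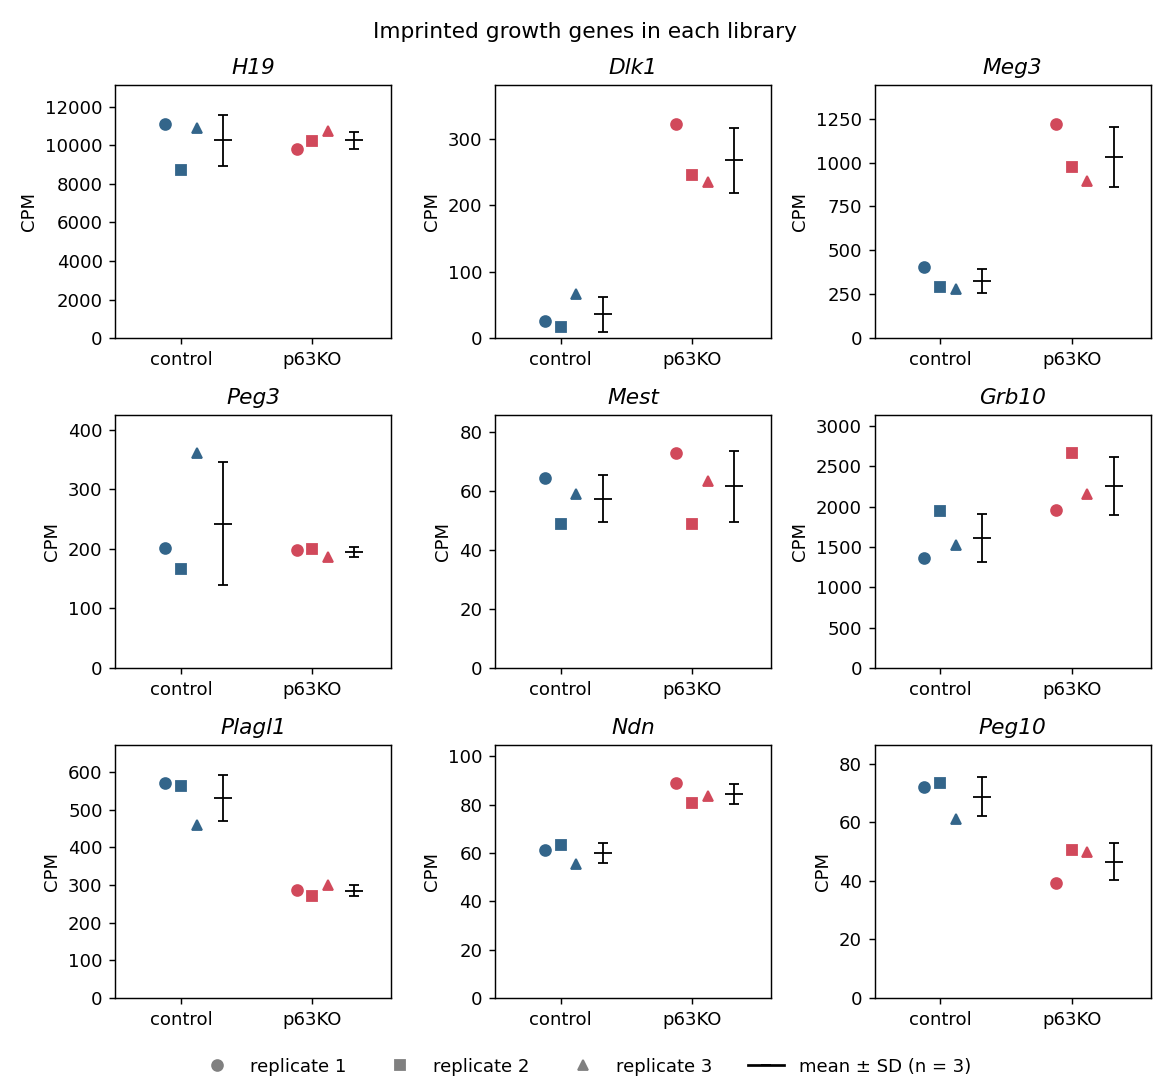
Level of each of the 9 imprinted genes in every library (CPM on linear axes from 0, 1 panel per gene), with a marker shape for each replicate and the mean ± SD of 3 libraries beside each group. Dlk1 and Meg3 lie higher in all 3 p63KO libraries and Plagl1 lower, while the H19 points of the groups overlap.

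Dlk1 had the largest fitted change of the 9. It encodes a paternally expressed membrane protein related to the Notch ligands, found on progenitor cells of many embryonic tissues. Dlk1 was at 25.7, 16.3 and 66.0 CPM in controls and at 322.6, 244.6 and 234.3 CPM in p63KO. All p63KO libraries were above all controls, and control replicate 3 was the highest control. The log2 fold change was 2.90 (SE 0.42, 95% interval 1.96 to 3.84, edgeR adjusted p = 0.00069). With control replicate 3 left out it was 3.67 (adjusted p = 1.1e-06).

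Meg3, the maternally expressed noncoding RNA of the same domain, was at 405.9, 291.9 and 279.6 CPM in controls and at 1222, 977.2 and 897.5 CPM in p63KO. The groups were well separated, and control replicate 3 was the lowest control here. On the log2 scale the difference was 1.66 (SE 0.16, edgeR adjusted p = 5.4e-05).

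The rest of the domain was given by a list of its known imprinted genes. With Dlk1 and Meg3, 6 genes of it were tested, of which 5 rose and 1 did not pass. Of all genes tested, 15.3% were called as higher. Genes of a domain are not independent, so the 5 are not separate observations. Rian, a maternally expressed noncoding RNA that hosts small nucleolar RNAs, went from 238.2 ± 31.2 to 677.6 ± 18.2 CPM (log2 fold change 1.51, SE 0.09, edgeR adjusted p = 3.7e-06). Mirg, a noncoding RNA that hosts microRNAs, went from 12.4 ± 2.89 to 43.1 ± 5.75 CPM (1.8, SE 0.17, adjusted p = 5.3e-05). Rtl1, a paternally expressed gene derived from a retrotransposon with an overlapping antisense transcript, went from 0.872 ± 0.399 to 3.16 ± 0.978 CPM (1.84, SE 0.39, adjusted p = 0.0063). The sources used here do not give the strand setting of the counting, so sense and antisense reads at Rtl1 cannot be told apart. Begain, at the edge of the domain, had a log2 fold change of 0.01 (adjusted p = 0.98). Dio3, which encodes the deiodinase that inactivates thyroid hormone, did not pass the filter on low counts and was not tested. It had 9, 7 and 186 counts in controls and 4, 2 and 8 in p63KO. Of its 202 control counts, 186 were in control replicate 3.

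**Figure D2:**
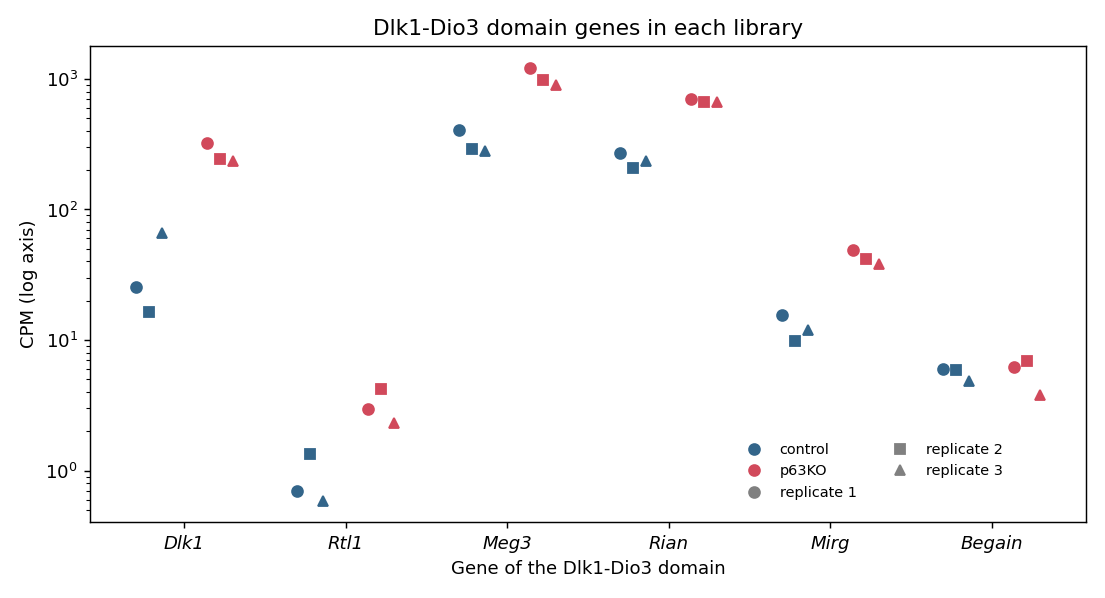
Levels of the Dlk1-Dio3 genes per library (CPM on a log axis) for the 6 genes tested, with color for the group and marker shape for the replicate. Dlk1, Rtl1, Meg3, Rian and Mirg are separated between the groups, Begain overlaps, and control replicate 3 is the highest control for Dlk1.

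The hairpins printed above had few counts each. The domain holds 58 hairpins in RefSeq, of which 56 had a row, 37 had a count and 13 had at least 10 counts. Their summed counts were 43, 27 and 17 in controls and 99, 67 and 66 in p63KO, or 2.27, 1.34 and 1.0 CPM of the unscaled library totals against 6.0, 4.63 and 4.95 CPM. All 3 p63KO sums were above all 3 control sums. Scaled to the library totals, 33 of the 37 hairpins were higher in p63KO and 4 were not, but these rows share their host transcripts and are not independent. Mir3072 had 16 counts in controls (8, 5 and 3) and 40 in p63KO (20, 17 and 3). Mir377 had 10 in controls (4, 3 and 3) and 22 in p63KO (11, 5 and 6). For Mir493 these were 6 (6, 0 and 0) and 20 (10, 7 and 3), and for Mir1188 7 (1, 2 and 4) and 11 (5, 2 and 4). Only Mir377 among these had no overlap between the groups. Mir540 had 0 counts in controls and 14 in p63KO, which is 5.89-fold higher if the control group is given a floor of 3 counts. That value leaves out the counting error of the 14 and is not a lower bound. Such reads come from long RNA libraries and measure the precursor region, not the mature microRNA.

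The fitted log2 changes of Meg3 and Dlk1, 1.66 and 2.90, were set against each other as a ratio within each library. The ratio of Meg3 to Dlk1 counts was 15.8, 17.8 and 4.23 in controls and 3.79, 4.0 and 3.83 in p63KO. Every p63KO ratio was below every control ratio, and control replicate 3 lay near the p63KO values. The mean log2 difference was -1.45, a 2.74-fold lower ratio (exact two-sided permutation p = 0.1, the smallest possible). The difference in the Meg3 to Dlk1 ratio was -2.12 without control replicate 3.

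**Figure D3:**
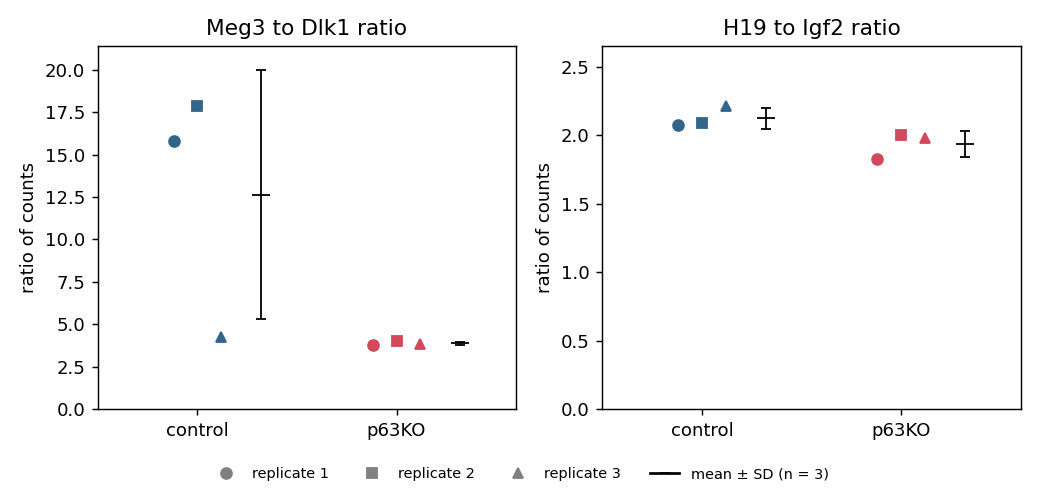
Ratio of Meg3 to Dlk1 counts and of H19 to Igf2 counts in each library on linear axes from 0, by group, with the mean ± SD of 3 libraries. The Meg3 to Dlk1 ratio of control replicate 3 is 4.23, near the p63KO range of 3.79 to 4.0, while the other controls are at 15.8 and 17.8.

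Promoter windows are shown for Meg3, which rose, and for Peg3, which did not pass the test, because both hold the letters TGACGTCA. Meg3 has 2 windows, of which only that at chr12:109540746-109541045 holds the match. RefSeq windows (GRCm38.p6, 250 bases before to 50 after a start site) matched 7 of the 9 genes, in 11 windows. The motif is the palindromic cAMP response element, so it reads the same on both strands, and it was chosen after the sequences were seen. It is in capitals below and begins 57 bases upstream of the start in Meg3 (plus strand) and 178 bases upstream in Peg3 (minus strand, chr7:6730370-6730669).
Meg3 window: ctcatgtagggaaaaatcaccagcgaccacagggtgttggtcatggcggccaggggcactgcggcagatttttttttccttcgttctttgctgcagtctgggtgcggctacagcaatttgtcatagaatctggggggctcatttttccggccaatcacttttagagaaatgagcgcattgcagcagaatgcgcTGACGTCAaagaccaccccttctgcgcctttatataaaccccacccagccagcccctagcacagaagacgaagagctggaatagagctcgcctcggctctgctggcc
Peg3 window: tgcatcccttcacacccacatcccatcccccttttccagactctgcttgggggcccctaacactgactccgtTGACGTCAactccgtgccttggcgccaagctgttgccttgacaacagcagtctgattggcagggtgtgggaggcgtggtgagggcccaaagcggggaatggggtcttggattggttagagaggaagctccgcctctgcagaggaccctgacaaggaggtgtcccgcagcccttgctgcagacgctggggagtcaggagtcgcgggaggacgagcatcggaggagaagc
Of 32851 windows of this length, 1.79% hold TGACGTCA. A core of the p53 family's binding sites (CATG, any 6 bases, CATG, the same on both strands) was in none of the 11 windows and in 0.712% of all windows. CAGCTG, an E-box that is also its own reverse complement, was in 1 Mest window and in 16.3% of all windows. A match is a description of the letters, and no match says only that these letters are absent from the window.

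Grb10 encodes an adaptor protein that binds insulin and IGF receptors and restrains growth, expressed from the maternal copy in most tissues and from the paternal copy in neurons. Its levels were 1368, 1948 and 1529 CPM in controls and 1957, 2660 and 2154 CPM in p63KO. The groups were separated narrowly, with the highest control at 1948 and the lowest p63KO library at 1957 CPM. The log2 fold change was 0.48 (SE 0.14, 95% interval 0.16 to 0.81, edgeR adjusted p = 0.032). The call was lost with DESeq2 (adjusted p = 0.055) and without any of 4 libraries, among them control replicate 1 (0.1) and p63KO replicate 2 (0.096). Without control replicate 3 or p63KO replicate 3 the adjusted p was 0.069.

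The neighbours of Grb10 changed in both directions. Ddc, which makes dopamine and serotonin from their precursors, was at 2.15, 3.01 and 16.0 CPM in controls and at 54.8, 42.5 and 44.0 CPM in p63KO. This was a difference of 2.77 on the log2 scale (SE 0.58, edgeR adjusted p = 0.0063), and of 4.18 with control replicate 3 left out (adjusted p = 3.2e-07). Cobl, an actin nucleator, fell from 63.6 ± 11.4 to 22.1 ± 0.946 CPM (-1.52, SE 0.13, adjusted p = 2.3e-05).

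Plagl1 encodes a paternally expressed zinc finger transcription factor that limits proliferation and, in other tissues, is known to act on other imprinted genes. It was at 570.0, 563.4 and 460.0 CPM in controls and at 285.9, 271.2 and 299.3 CPM in p63KO. Every p63KO library was below every control. On the log2 scale Plagl1 changed by -0.90 (SE 0.09, 95% interval -1.10 to -0.69, edgeR adjusted p = 7.3e-05).

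Ndn encodes necdin, a paternally expressed protein of the MAGE family best known in neurons. Its levels were 61.2, 63.4 and 55.6 CPM in controls and 88.8, 80.9 and 83.6 CPM in p63KO, with no overlap. Ndn had a log2 fold change of 0.49 (SE 0.07, edgeR adjusted p = 0.00081). Other genes of its domain moved both ways. Magel2, also of the MAGE family, was at 1.02 CPM in controls and 2.58 CPM in p63KO (1.34, SE 0.37, adjusted p = 0.023), a call lost without control replicate 1 or 2 or without p63KO replicate 1 or 2. Mkrn3, a ubiquitin ligase, fell from 11.8 ± 0.522 to 5.75 ± 1.74 CPM (-1.04, SE 0.22, adjusted p = 0.006). Ube3a and Peg12 did not pass (log2 fold changes 0.25 and 0.17), although Ube3a did without p63KO replicate 1 (0.37, adjusted p = 0.0043). The Snrpn row held 0 counts in controls and 9 in p63KO, and reads shared with Snurf cannot be assigned with certainty.

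Peg10 encodes a paternally expressed protein derived from a retrotransposon that the placenta needs. It was at 72.0, 73.3 and 61.0 CPM in controls and at 39.2, 50.6 and 49.8 CPM in p63KO, with no overlap. Peg10 had a log2 fold change of -0.57 (SE 0.11, edgeR adjusted p = 0.0045). Of the 7 tested genes of its domain, which are not independent, 3 fell and 4 did not pass, while 14.3% of all genes tested were called as lower. Pon2, a paraoxonase, fell from 154.0 ± 11.1 to 104.6 ± 7.06 CPM (-0.56, SE 0.08, adjusted p = 0.00052). Sgce, the sarcoglycan that shares a promoter region with Peg10, went from 27.0 ± 0.400 to 20.3 ± 3.28 CPM (-0.42, SE 0.12, adjusted p = 0.032). The Sgce call was lost without any control and without p63KO replicate 1 or 2.

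Peg3, a paternally expressed zinc finger protein, was at 201.7, 165.6 and 359.8 CPM in controls and at 198.6, 199.5 and 185.7 CPM in p63KO. The p63KO libraries lay within the control range, and the control mean was set by control replicate 3. The log2 fold change was -0.32 (SE 0.24, edgeR adjusted p = 0.37), and 0.08 without that library (adjusted p = 0.57). Its neighbour Zim1 fell, from 7.0, 7.3 and 18.3 CPM to 1.77, 2.56 and 0.594 CPM (-2.70, SE 0.52, adjusted p = 0.0037), and was at -2.11 without control replicate 3. Usp29 did not pass (-0.14, adjusted p = 0.72).

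Mest encodes a paternally expressed member of the hydrolase family. It was at 64.2, 48.7 and 59.1 CPM in controls and at 72.6, 48.8 and 63.2 CPM in p63KO, with overlap. Mest had a log2 fold change of 0.11 (SE 0.15, 95% interval -0.23 to 0.44, edgeR adjusted p = 0.65). Copg2, beside it, had -0.03 (adjusted p = 0.73).

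**Figure D4:**
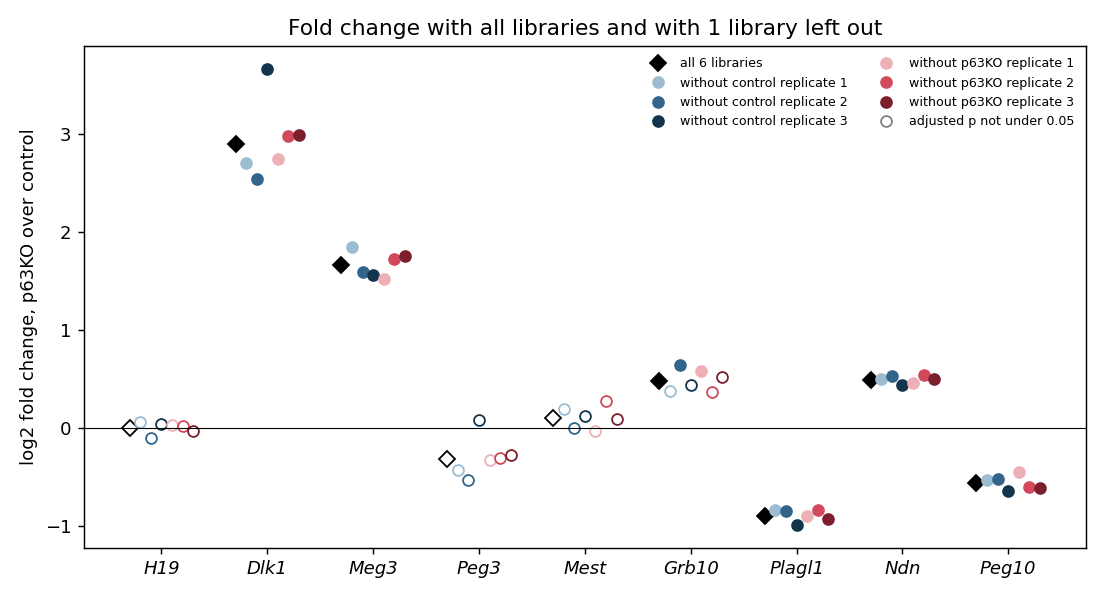
Log2 fold change of p63KO over control for each of the 9 genes with all libraries and with each library left out in turn. The Dlk1 value ranges from 2.55 to 3.67 and that of Meg3 from 1.53 to 1.85, while H19, Peg3 and Mest lie on both sides of 0. Open symbols did not pass the edgeR test.

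Levels can be compared between genes only per length, here as CPM per kilobase of the union of annotated exons (GENCODE M21 basic, GRCm38, whereas the counts were made on mm9). That union merges all annotated transcripts of a gene and was 15684 bases for Meg3, against 8694 for Peg3 and 2286 for H19. The place of Meg3 and its overlaps with other genes rest on that length. Before it was applied, Meg3 was at 325.8 CPM in controls and Peg3 at 242.4 CPM. Which transcripts were present was not examined. In controls the order was H19 at 4486 ± 578, Grb10 at 314.9 ± 58.4, Plagl1 at 98.7 ± 11.5, Peg3 at 27.9 ± 11.9, Meg3 at 20.8 ± 4.44 and Mest at 20.6 ± 2.85. Ndn at 16.3 ± 1.08, Peg10 at 10.3 ± 1.01 and Dlk1 at 7.53 ± 5.52 CPM per kilobase followed. Peg3, Meg3 and Mest overlapped between control libraries, as did Peg10 and Dlk1. In p63KO, Meg3 (65.8 ± 10.8) and Dlk1 (55.8 ± 10.1) overlapped with each other, and Dlk1 overlapped with Plagl1 (53 ± 2.61). By the group means, Dlk1 was last of the 9 in controls and the fourth in p63KO, with the overlaps just given. Within a group, the SD of log2 CPM was 0.75 for Dlk1 and 0.41 for Peg3, against 0.08 for Ndn and a median of 0.13 over all genes.

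Beyond these 9, a list of 62 other imprinted genes was examined. Of these, 60 had a row and 48 were tested: 10 rose, 10 fell and 28 did not pass, so that 41.7% were called against the background of 29.6%. The list was chosen with earlier results of these data known, so this share is a description. The median log2 fold change was 0.05. With the 9 members included, the list was read by expressed allele: of 12 tested maternal genes, Grb10 among them, 6 rose and 1 fell, of 24 tested paternal genes 7 rose and 5 fell, and of 21 whose allele depends on the tissue 1 rose and 6 fell. Genes of a domain are not independent, and no difference between these classes was tested.

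The changed genes outside the members' own domains that ranked lowest by p included both directions. Nnat, a small membrane protein of developing brain, fell from 1135 ± 84.8 to 646.7 ± 8.73 CPM (-0.81, edgeR adjusted p = 2.4e-05). Cdkn1c, the maternally expressed cell cycle inhibitor p57, rose from 235.1 ± 17.6 to 387.3 ± 10.3 CPM (0.72, adjusted p = 5.1e-05). Cd81 and Osbpl5 fell (-0.61 and -0.99), and the amino acid transporter Slc38a4 rose (0.76). Kcnq1, a potassium channel, had 19 counts in controls and 218 in p63KO (3.78, SE 0.45, adjusted p = 0.00021). Of the 19 control counts 12 were in control replicate 1, without which the value was 4.6. Its antisense partner Kcnq1ot1 had a log2 fold change of 0.12 (adjusted p = 0.67). Reads of the 2 cannot be told apart where they overlap, since strand use is not given. Nap1l5, an intronless gene of the nucleosome assembly family, rose (1.45, adjusted p = 0.014), a call lost without control replicate 1 (adjusted p = 0.053). Ascl2 had 43 counts in controls and 3 in p63KO.

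**Figure D5:**
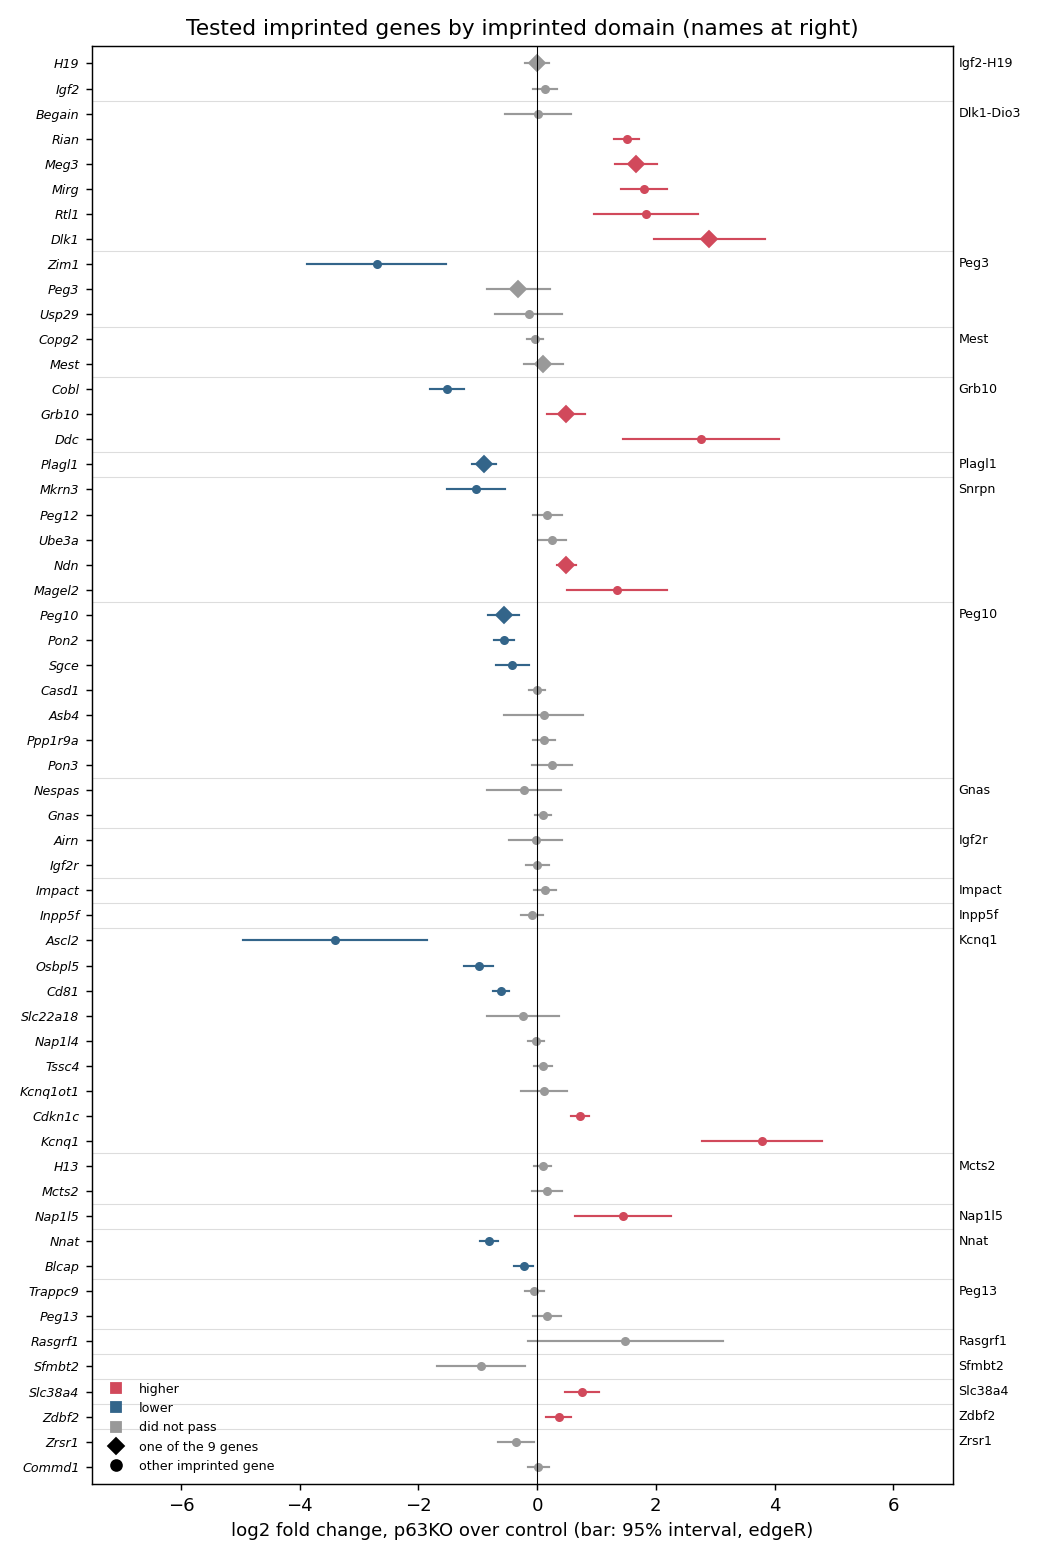
Log2 fold change of p63KO over control for the 9 members and the tested genes of the other imprinted list, with 95% intervals (edgeR), grouped by domain and colored by call, with diamonds for the members. The Dlk1-Dio3 genes Dlk1, Meg3, Rian, Mirg and Rtl1 lie to the right of 0, and Plagl1, Nnat and Zim1 to the left.

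Paralogues of the members, partners of IGF signalling and H19, and genes of imprints or methylation were read from 3 further lists. These lists were chosen with earlier results of these data known, so the shares called are a description. Among 18 tested paralogues, 5 rose and 2 fell (38.9% called against 29.6% of all genes tested), with a median log2 fold change of 0.28 against -0.01 over all genes tested. Dlk2, the closest relative of Dlk1, fell from 28.3 ± 3.08 to 0.455 ± 0.445 CPM (-5.85, SE 0.39, edgeR adjusted p = 6e-06), opposite to Dlk1. Its p63KO counts were 16, 5 and 1, and without p63KO replicate 1 the value was -6.99. Maged2, a MAGE family relative of Ndn, rose from 128.3 ± 3.34 to 193.6 ± 10.5 CPM (0.59, adjusted p = 9.5e-05). Zcchc5, of the same retrotransposon-derived family as Peg10 and Rtl1, rose from 13.5 ± 1.97 to 30.0 ± 1.2 CPM (1.15, adjusted p = 0.00012).

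Among 16 tested partners of IGF signalling and H19, 3 rose and none fell (18.8% called against 29.6% of all genes tested), with a median of -0.07. Insrr, an orphan receptor of the insulin receptor family, had 7 counts in controls and 384 in p63KO (5.97, SE 0.48, edgeR adjusted p = 1.9e-05). Irs1, the adaptor of insulin and IGF receptors, rose from 155.1 ± 31.5 to 316.2 ± 40.5 CPM (1.03, adjusted p = 0.00053). Hmga2, a chromatin protein of growing tissues, rose from 648.0 ± 53.2 to 931.5 ± 84.1 CPM (0.52, adjusted p = 0.0015). The receptors Igf1r and Insr did not pass (-0.04 and -0.08).

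Of 19 tested genes that set, keep or remove imprints or methylation, 3 rose and 1 fell, with a median of -0.06. The share called was 21.1%, against 29.6% of all genes tested. Uhrf1, which guides maintenance methylation, fell by 0.46 on the log2 scale (edgeR adjusted p = 0.0022), and the methyltransferases Dnmt3b and Dnmt3a rose by 0.41 and 0.27. Tet1, an enzyme that acts in the removal of methylation, also rose (0.25, edgeR adjusted p = 0.023), a call lost in 3 of 13 alternatives. Zfp57 and Trim28, which protect imprints, did not pass (-0.19 and -0.03).

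Markers of basal cells and of other cell types moved with these results, and their part in the results was not tested. Of all genes tested, 15.3% were called as higher and 14.3% as lower. Of 4 tested basal genes 3 fell: Trp63, Krt5 (233.6 to 6.95 CPM) and Krt15 (1284 to 226.9 CPM). The sum of the list was 1785 to 2365 CPM in controls and 269.3 to 363.1 CPM in p63KO. Trp63 is the targeted gene itself, so its fall was set by the design, and it is part of that sum. All 8 tested neuroendocrine genes rose, and their summed level was between 3.01 and 7.57 CPM in controls and between 455.3 and 562.9 CPM in p63KO. Of 8 tested genes of neurons and neural crest 5 rose, with sums of 17.1 to 27.2 CPM in controls and 244.3 to 312.1 CPM in p63KO. Of 18 tested mesenchymal genes 3 rose and 9 fell, and their sum was 629.9 to 706.7 CPM in controls and 1426 to 1824 CPM in p63KO, mainly through Dcn (159.0 to 1222 CPM). In that list Col1a1 fell from 93.7 ± 24.7 to 44.0 ± 23.1 CPM with overlap between the groups, and Pdgfra fell by 1.05 on the log2 scale. The Col1a1 call was lost with DESeq2 (adjusted p = 0.083), without control replicate 1 (0.11) or 3 (0.075) and without p63KO replicate 2 (0.11) or 3 (0.076), and the Pdgfra call without control replicate 1 (0.075). No gene of the mesenchymal list was at 0 in all libraries. Of 7 tested muscle genes 1 rose and 4 fell, with sums of 81.9 to 185.2 CPM in controls and 41.8 to 64.5 CPM in p63KO, with both directions also among the 2 tested cartilage genes. Col2a1 fell from 983.7 to 425.8 CPM, and Col9a1 rose from 0.722 to 1.81 CPM (edgeR adjusted p = 0.016), a call lost in 3 of 13 alternatives. Acan and Matn1, also listed for cartilage, were not tested, with 5 and 23 counts in controls and 6 and 0 in p63KO. Col2a1 was thus the only abundant gene of that list, and whether it marks cartilage cells here was not tested. None of the 4 tested endothelial or 3 tested blood genes passed the test, with sums of at most 6.83 CPM for the endothelial list. The sum of the blood list was 39.0 CPM in control replicate 3 and at most 24.6 CPM in the other 5 libraries, and Hbb-y was at 1.5, 4.8 and 32.6 CPM in controls and at 9.91, 8.45 and 21.2 CPM in p63KO. Without control replicate 3, Hbb-y was higher in p63KO (2.05 on the log2 scale, edgeR adjusted p = 0.013).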

How the data were processed

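The authors deposited 1 table of raw read counts per gene symbol for 6 libraries, whole numbers with no normalization, per the values of the file. Build mm9 and the tools TopHat2 2.1.0, bcl2fastq 1.8.4 and DESeq2 (version not listed) were used per the submitters' processing notes. Not given in the sources used here are the strand setting, the annotation and the counting tool. The labels mention single-end as well as paired reads, so the layout could not be resolved. Columns were tied to samples by their names, which stand in the sample descriptions.

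The counts were compared with edgeR 4.0.16 (R 4.3.3): filterByExpr (minimum count 10, minimum total 15), TMM scaling and a quasi-likelihood test of group with no other term, adjusted by Benjamini-Hochberg over 13849 genes at 0.05. The SE is the log2 fold change divided by the square root of F. Ratios used counts plus 0.5 and exact permutation tests. Alternatives were DESeq2 1.42.0, limma-voom (limma 3.58.1), other scalings and filters, a replicate block, a stricter threshold and each library left out. The scripts were tested on simulated data. Libraries of a group differed beyond sampling noise (chi-square per degree of freedom 7.53 to 15.3).

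Named genes were the 9 members, Trp63, the imprinted genes of the members' domains, the 8 other imprinted genes of lowest p, the 3 of lowest p in each further list, and markers of other cell types. Further genes named beside them were chosen after their values were seen. The members and lists were chosen with earlier results of these data known.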

Additional observations from a re-analysis of the deposited data

How the results depend on the processing

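Of 117 alternative fits of the 9 members, 98 kept their direction and side of the threshold, 5 lost a call, all for Grb10, and 14 changed sign, all for H19, Peg3 and Mest. Of 622 for the other imprinted genes, 578 kept both, 18 lost a call, 2 gained one and 24, over 12 genes, changed sign. None of these 15 genes with a change of sign was called in any fit. At an adjusted p under 0.01, 2580 genes were called against 4098 at 0.05, by the stricter threshold itself. With each library left out the count ran from 3150 to 3771 genes, with 5 to 6 members and 15 to 20 other imprinted genes called. DESeq2 called 4025 genes and limma-voom 4082. Leaving out a library moved the Meg3 to Dlk1 ratio between -2.12 and -1.08 and the H19 to Igf2 ratio between -0.16 and -0.09 (log2).

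The log2 fold changes that changed sign were, over left-out libraries, -0.11 to 0.060 for H19, -0.53 to 0.082 for Peg3, -0.033 to 0.27 for Mest, -0.13 to 0.23 for Begain, -0.28 to 0.015 for Usp29, -0.078 to 0.017 for Copg2, -0.036 to 0.30 for Asb4, -0.015 to 0.039 for Casd1, -0.41 to 0.027 for Slc22a18, -0.10 to 0.27 for Kcnq1ot1, -0.053 to 0.0049 for Nap1l4, -0.046 to 0.094 for Igf2r, -0.11 to 0.089 for Airn, -0.049 to 0.063 for Commd1, -0.075 to 0.0083 for Trappc9, -0.094 to 0.0093 for Igf1r, -0.062 to 0.0068 for Trim28, -0.50 to 2.05 for Hbb-y and -0.71 to 2.36 for Hba-x. Both blood genes were at their highest without control replicate 3, where both passed the test (edgeR adjusted p = 0.013 for Hbb-y and 0.039 for Hba-x). H19 was at 0.0061 with DESeq2 and RLE scaling, 0.0062 with limma-voom, 0.022 with upper-quartile scaling, 0.00062 with no filter and 0.00060 with the filter at 1 CPM. With limma-voom Begain was at -0.014, Casd1 at -0.0013 and Hba-x at 1.27. Among 94 further genes of the lists 15 changed sign, and none of these was called in any fit. The cause was not tested.

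Replicate numbers are shared between the groups, but the labels do not say that they pair samples. Deviations from the group means correlated at 0.17, 0.26 and 0.03 between libraries of the same number, and 5 of the 6 libraries correlated best with their own number, a hint from the data and not the design. With the replicate block 4778 genes were called, with 6 members and 20 other imprinted genes. With it H19 was at 0.0065, Begain at -0.017, Casd1 at -0.00031 and Hba-x at 0.51 (log2). Both ratio differences, -1.45 and -0.14, are by construction the same with the replicate block. A mean of differences within pairs always equals the difference of the group means. The exact test on the pairs gave p = 0.25 for each ratio, the smallest p that so few pairs can give. That test could therefore not pass the threshold, and neither value shows whether the ratios depend on pairing.

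Depth limits the low rows: 3 counts are between 0.153 and 0.223 CPM, and 12 of the other imprinted genes with a row could not be tested.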

Other observations

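The 5 genes whose levels followed those of H19 most closely over the 6 libraries, by Pearson r of log2 CPM among 10030 genes, were 2210404J11Rik (0.966), Stk11ip (0.951), Hnrnpf (0.947), 1810030N24Rik (0.944) and Atf7ip (0.941). They were picked as the highest of many correlations over 6 libraries that share depth and scaling, so these values are a description. None of the 5 passed the test between p63KO and control, which the choice largely fixes, since H19 itself did not pass it.

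Control replicate 3 was the highest control for Dlk1, Peg3, Zim1, Ddc and Dio3 and the lowest for Meg3, Plagl1, Ndn and Peg10.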
